A study of Mus musculus with 12 samples.

Results

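The 35 genes described here build cholesterol and fatty acids, or sense and export sterols, and they were taken from a fixed list of gene symbols among the 35907 genes measured. Of these, 18 encode enzymes from the start of the mevalonate pathway to cholesterol, 7 encode sterol sensors, their partners and exporters, and 10 encode enzymes that make, lengthen or desaturate fatty acids. RNA was sequenced from 12 mouse spleen libraries in 4 groups of 3, named WT Pre-Tx, TCF-1 cKO Pre-Tx, WT Post-Tx and TCF-1 cKO Post-Tx. TCF-1 cKO mice carry Tcf7 flox/flox alleles and a Cre driven by the Cd4 promoter, so that Tcf7, the gene of the transcription factor TCF-1, is deleted while T cells develop in the thymus. WT mice are C57BL/6, and donors of both genotypes were adult and sex-matched. Pre-Tx libraries are labelled as CD4 T cells sorted from the spleen before transplant. Post-Tx libraries are labelled as CD4 T cells at day 7 after donor T cells, together with T cell-depleted WT bone marrow, were given to lethally irradiated BALB/c recipients, from whose spleens H2Kb+ donor T cells were sorted. The design text names CD8 T cells for some of these sorts. Total counts were 17103415 to 19691807 in WT Pre-Tx, 20183939 to 25756488 in TCF-1 cKO Pre-Tx, 27109156 to 49486745 in WT Post-Tx and 18022093 to 23098887 in TCF-1 cKO Post-Tx.

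Cholesterol is made from acetyl-CoA through mevalonate, squalene and lanosterol. Fatty acids are made from the same acetyl-CoA, which Acly, ATP citrate lyase, splits from citrate in the cytosol. When sterols in the endoplasmic reticulum run low, the escort protein Scap carries the SREBP transcription factors, encoded by Srebf1 and Srebf2, to the Golgi, where they are cut and freed to switch on both pathways. The Insig proteins hold Scap back when sterols are plentiful. Activated T cells are known to raise both pathways to build the membranes that division needs.

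The label of the Pre-Tx libraries was checked against markers, and the data went against it. In WT Pre-Tx the B cell marker Cd79a had a mean of 2495 ± 72.3 CPM, a count scaled to the library total (SD, n = 3), Cd8a had 153.8 ± 20.6 and Cd4 had 102.9 ± 42.9. In TCF-1 cKO Pre-Tx the means were 2133 ± 67.8 for Cd79a, 77.4 ± 5.39 for Cd8a and 78.2 ± 11.2 for Cd4 (n = 3). The Pre-Tx libraries thus held far more B cell than CD4 T cell RNA, and each Pre-Tx value below is that of such a mixture. At day 7 Cd79a was near 0, with means of 1.97 CPM in WT and 3.48 CPM in TCF-1 cKO, and Cd4 was at 1133 ± 34.4 and 794.3 ± 76.6 CPM (n = 3 each). Summed over 10 B cell markers, the day 7 level was 841.1 to 946.0 CPM in WT and 526.6 to 899.4 CPM in TCF-1 cKO. RNA of that list was thus not absent at day 7. The targeted gene Tcf7 was at 189.6, 198.6 and 116.4 normalized CPM in the WT Pre-Tx libraries and at 198.5, 153.9 and 200.8 in the libraries labelled TCF-1 cKO Pre-Tx, so that the groups overlapped (log2 fold change -0.04 ± 0.23, adjusted p = 0.924). At day 7 it was at 169.7, 158.5 and 194.1 in WT and at 89.96, 96.4 and 111.1 in TCF-1 cKO (-0.66 ± 0.22, adjusted p = 0.0670). Neither difference passed the test. The tables count whole transcripts, and the exons that the flox alleles remove are not given in the sources used here, so Tcf7 RNA does not check the genotype label of the Pre-Tx libraries. Normalized CPM are here CPM corrected with TMM factors over all 12 libraries. Log2 fold changes are given ± standard error, and a gene was called at an adjusted p under 0.05 over all genes tested with edgeR's quasi-likelihood test.

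Compared per length in TPM, a transcript level divided by length and scaled to the library, the most abundant member in all 4 groups was Elovl1, which lengthens saturated and monounsaturated very long chain fatty acids. Its level was 112.8 ± 10.9 TPM in WT Pre-Tx, 134.5 ± 11.1 in TCF-1 cKO Pre-Tx, 245.1 ± 49.9 in WT Post-Tx and 211.0 ± 10.8 in TCF-1 cKO Post-Tx (SD, n = 3 each). Second in both Pre-Tx groups was Srebf2, the SREBP gene that mainly serves the sterol pathway, at 99.3 ± 19.6 TPM in WT, which lay within 1 SD of Elovl1, and at 108.0 ± 12.03 in TCF-1 cKO. In both Post-Tx groups the second place was held by Ebp, the sterol isomerase also known as emopamil binding protein, with 100.2 ± 16.4 TPM in TCF-1 cKO and a mean within 1 SD of that in WT. The next place differed by group. It was held by Fdps, farnesyl diphosphate synthase, at 82.1 ± 7.64 TPM in WT Pre-Tx and 69.2 ± 20.5 TPM in TCF-1 cKO Post-Tx, by Scd1, a stearoyl-CoA desaturase, at 105.5 ± 27.95 TPM in TCF-1 cKO Pre-Tx, and by Acly at 86.7 ± 6.82 TPM in WT Post-Tx. In TCF-1 cKO Pre-Tx the SDs of Scd1 and Srebf2 overlapped. At the low end stood Abca1, a cholesterol exporter, with 0.348 ± 0.294 TPM in WT Post-Tx and 0.535 ± 0.361 TPM in TCF-1 cKO Post-Tx, the lowest of the 35 genes in both.

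Promoters from 250 bases before to 50 after the start site, as given by RefSeq for GRCm38.p6, were matched for 28 of the 35 genes. Fdps, Fdft1, Sqle, Abcg1, Scd1, Scd2 and Fads1 were not matched. The sterol regulatory element core TCACNCCAC, a sequence that SREBPs bind, was searched on both strands, and variants of it were not. It was found for 1 of the 28 genes, Hmgcs1, and in 1 of their 37 promoters (2.7%), against 1.24% of all 32851 promoters. The CCAAT box, which the factor NF-Y binds, lay in a promoter of 22 of the 28 genes and in 23 of their 37 promoters (62.2%), against 37.4% of all promoters. It was found for 14 of 15 matched sterol enzyme genes, 4 of 6 sensing and export genes and 4 of 7 fatty acid genes. The motifs do not overlap in the sequences shown. Printed here are the promoters of Acly, whose genotype difference turned with the stage, of Cyp51, the sterol enzyme gene called before transplant, and of Hmgcs1, which holds the element. Capitals mark the motifs, and ATTGG is CCAAT on the other strand. A match is a description of the letters in this window.
Acly, chr11:100527951-100528250, minus strand: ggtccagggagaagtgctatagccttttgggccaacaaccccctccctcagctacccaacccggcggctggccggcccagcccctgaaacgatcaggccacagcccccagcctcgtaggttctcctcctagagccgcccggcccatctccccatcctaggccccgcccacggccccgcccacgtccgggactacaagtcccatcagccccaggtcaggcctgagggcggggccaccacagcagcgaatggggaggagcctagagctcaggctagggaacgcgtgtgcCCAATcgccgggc
Cyp51, chr5:4104648-4104947, minus strand: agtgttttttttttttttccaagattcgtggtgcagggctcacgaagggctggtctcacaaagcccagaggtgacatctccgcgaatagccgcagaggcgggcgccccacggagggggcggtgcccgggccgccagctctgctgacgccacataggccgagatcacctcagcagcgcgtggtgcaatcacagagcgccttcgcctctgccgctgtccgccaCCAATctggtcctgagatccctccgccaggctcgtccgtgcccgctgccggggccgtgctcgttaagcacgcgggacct
Hmgcs1, chr13:119690101-119690400, plus strand: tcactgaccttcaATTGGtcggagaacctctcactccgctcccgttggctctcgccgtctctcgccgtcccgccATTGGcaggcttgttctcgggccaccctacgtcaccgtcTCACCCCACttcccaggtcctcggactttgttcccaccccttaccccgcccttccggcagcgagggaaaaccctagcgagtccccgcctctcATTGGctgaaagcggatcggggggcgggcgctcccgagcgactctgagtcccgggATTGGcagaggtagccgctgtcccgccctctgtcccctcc

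The genotypes were first compared before transplant, in libraries that held far more B cell than CD4 T cell RNA. A comparison of such mixtures cannot be read as the effect of TCF-1 loss in CD4 T cells at rest. In the libraries labelled TCF-1 cKO Pre-Tx, 5 of the 35 members (14.3%) were called higher than in WT and 0 lower. Over all 17021 genes tested, 8.52% were called higher and 5.65% lower. The calls were Acly, Scd1 and Scd2 among the 10 fatty acid genes, Cyp51 among the 18 sterol enzyme genes, and Abca1 among the 7 sensing and export genes. The median log2 fold change was 0.63 for fatty acid genes, 0.35 for sterol enzymes and -0.05 for sensing and export genes, beside -0.11 over all genes tested. At an unadjusted p under 0.05, 11 members were higher and 3 lower. Voom with limma called 5 higher and 0 lower, and DESeq2 called 8 higher and 1 lower. Shares of all genes at these settings are not given here, so only the main counts can be read against the background.

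Scd2 and Scd1 are stearoyl-CoA desaturases, which turn saturated into monounsaturated fatty acids. Scd2 (chr19:44293674-44306864, GRCm38) was at 63.6, 75.6 and 53.0 normalized CPM in WT Pre-Tx and at 196.4, 228.1 and 151.3 in TCF-1 cKO Pre-Tx. All TCF-1 cKO libraries lay above all WT libraries, and the gene rose by 1.42 ± 0.25 (adjusted p = 0.0101). Scd1 (chr19:44394455-44407879) was at 197.1, 268.9 and 155.4 normalized CPM in WT and at 679.7, 519.1 and 457.1 in TCF-1 cKO, again without overlap, and rose by 1.26 ± 0.24 (adjusted p = 0.0126). The genes are paralogs that lie near each other, and reads they share were split between them by the estimate of kallisto. Both calls were lost without WT Pre-Tx replicate 1, where 14 genes in all were called (adjusted p = 0.0697 for Scd2 and 0.0739 for Scd1), and held without any other single library. The call of Scd1 was also lost in a fit of all 12 libraries.

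Acly (chr11:100476353-100528000) was at 130.7, 196.5 and 113.2 normalized CPM in WT Pre-Tx and at 296.3, 370.8 and 290.7 in TCF-1 cKO Pre-Tx. The groups did not overlap, and the gene rose by 0.96 ± 0.23 (adjusted p = 0.0239). In TPM, its protein-coding transcripts Acly-203 and Acly-207 had means of 15.6 and 13.5 TPM in WT and of 34.8 and 31.6 TPM in TCF-1 cKO. Acly-203 held 47.5% of the TPM of the gene in WT and 47.4% in TCF-1 cKO, so the make-up of the gene by transcript was alike. The call held in 2 of 6 fits with 1 library left out, and was lost without replicate 1 or 2 of TCF-1 cKO or replicate 1 or 3 of WT and with upper-quartile normalization. Fasn, the fatty acid synthase that uses the acetyl-CoA Acly supplies, was not called (-0.28 ± 0.28, adjusted p = 0.504), and neither was Acaca, acetyl-CoA carboxylase (1.12 ± 0.51, adjusted p = 0.143).

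Cyp51 (chr5:4081145-4104746), the lanosterol demethylase, was at 15.4, 36.2 and 6.82 normalized CPM in WT Pre-Tx and at 73.2, 52.5 and 84.1 in TCF-1 cKO Pre-Tx. It rose by 1.71 ± 0.46 (adjusted p = 0.0351), with the WT libraries spread over more than the gap between the groups. Abca1 (chr4:53030787-53159895) was at 25.5, 30.3 and 10.1 normalized CPM in WT and at 70.2, 45.2 and 66.7 in TCF-1 cKO, and rose by 1.31 ± 0.38 (adjusted p = 0.0406). Neither call was firm. That of Cyp51 held in 1 of 6 fits with 1 library left out, without WT Pre-Tx replicate 2, and that of Abca1 in 0 of 6, with adjusted p up to 0.143 and 0.114.

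No other sterol enzyme gene was called. Of the 18, 11 had a positive and 7 a negative log2 fold change. The largest positive value after Cyp51 was that of Hmgcs1, HMG-CoA synthase, at 1.19 ± 0.43 (adjusted p = 0.0803). The largest negative value was that of Mvk, mevalonate kinase, at -1.34 ± 0.47 (adjusted p = 0.0731). Among the regulators, Srebf1, the SREBP gene that mainly serves fatty acid synthesis, was at 164.6, 219.2 and 215.2 normalized CPM in WT Pre-Tx and at 145.0, 147.4 and 155.0 in TCF-1 cKO Pre-Tx. Its groups did not overlap, but the difference did not pass the test (-0.61 ± 0.22, adjusted p = 0.0762). Srebf2 was at 348.5, 552.6 and 467.1 in WT and at 409.0, 403.5 and 579.0 in TCF-1 cKO, and the groups overlapped (-0.17 ± 0.22, adjusted p = 0.606). Insig1, an anchor of Scap, was at 17.7, 25.2 and 31.1 in WT and at 25.4, 29.9 and 26.5 in TCF-1 cKO, also with overlap (-0.05 ± 0.36, adjusted p = 0.928). Its relative Insig2 was at 18.8, 21.96 and 18.9 in WT and at 50.2, 53.4 and 35.3 in TCF-1 cKO, without overlap (1.05 ± 0.33, adjusted p = 0.0521).

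**Figure D1:**
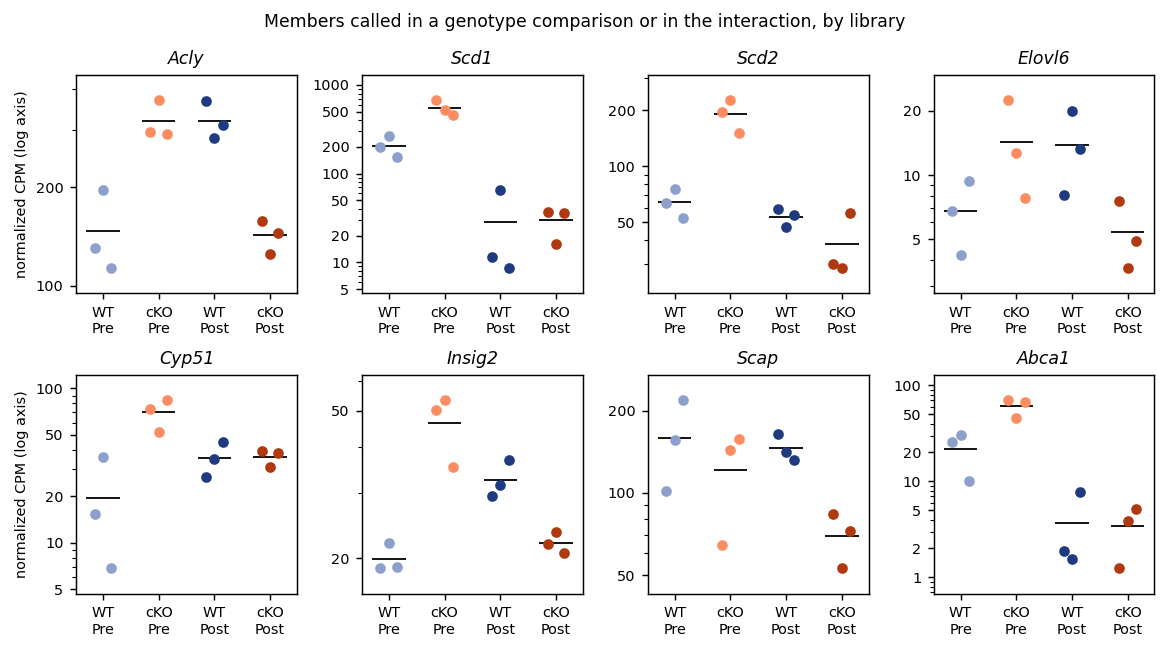
Normalized CPM (log axis) of the 8 members called in a genotype comparison or in the interaction, with 1 point per library and a line at the mean of 3. Acly is at 113.2 to 196.5 in WT and 290.7 to 370.8 in TCF-1 cKO before transplant, and at 282.7 to 367.3 in WT and 125.1 to 158.2 in TCF-1 cKO at day 7.

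Markers of other cells moved between the Pre-Tx genotypes as well. Of 8 T cell markers 6 were called lower in TCF-1 cKO, and their summed level was 2835 to 3364 CPM in WT and 1366 to 1586 CPM in TCF-1 cKO. Of 10 B cell markers 3 were called higher, and their sum was 14300 to 16080 CPM in WT and 18260 to 19760 CPM in TCF-1 cKO. Of 13 macrophage and monocyte markers 4 were called higher, with sums of 3186 to 4401 CPM in WT and 3517 to 4412 CPM in TCF-1 cKO. Of 12 proliferation markers 4 were called higher, with sums of 547.9 to 586.8 CPM in WT and 617.0 to 955.1 CPM in TCF-1 cKO. Of 477 olfactory receptor genes tested, which neither T nor B cells are known to use, 109 were called lower and 1 higher, and 462 were negative. The sum over the 1405 genes of that list was 2532 to 7011 CPM in WT and 879.2 to 1550 CPM in TCF-1 cKO, without overlap. The part of these genes and cells in the Scd1, Scd2, Acly, Cyp51 and Abca1 results was not tested. In bulk libraries, fewer cells of a type and less RNA per cell cannot be told apart.

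**Figure D2:**
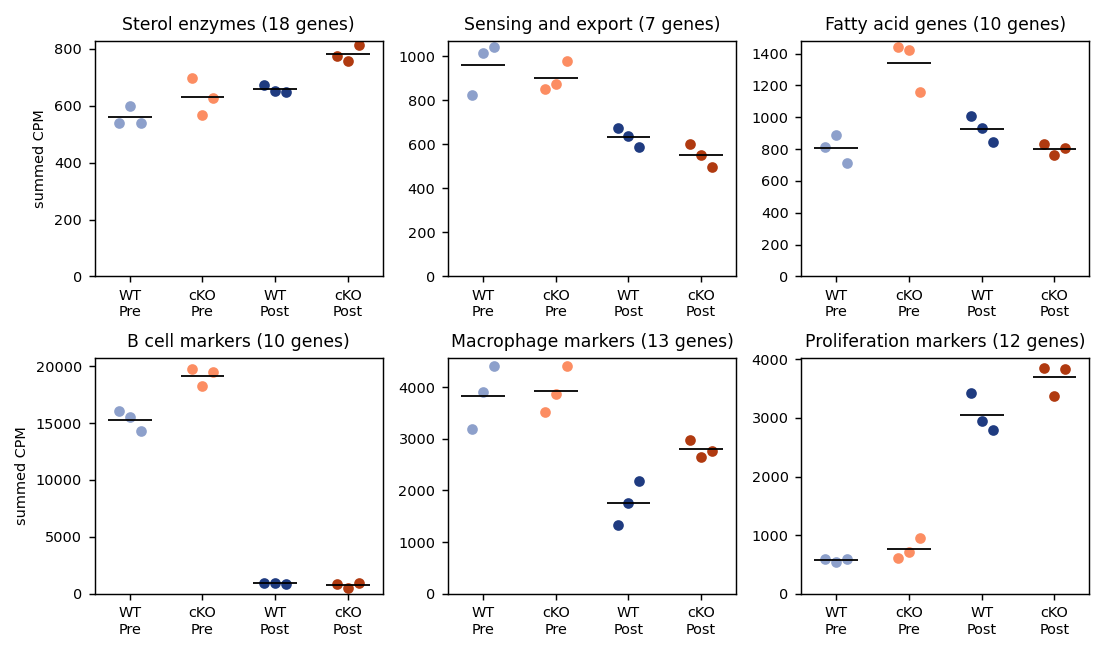
Summed CPM, scaled to the library total only, of the 3 classes of members and of 3 marker lists, with 1 point per library and a line at the group mean. The fatty acid genes stand at 1158 to 1444 CPM in TCF-1 cKO Pre-Tx against 711.6 to 891.7 CPM in WT Pre-Tx, and the B cell markers at 14300 CPM or more in every Pre-Tx library against at most 946.0 CPM at day 7.

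At day 7 the same comparison asks how the genotypes differ in alloactivated donor cells. Here 0 of the 35 members were called higher in TCF-1 cKO and 2 lower (5.71%), Acly and Scap. Of all 19289 genes tested 3.52% were called higher and 3.13% lower. At an unadjusted p under 0.05, 1 member was higher and 9 were lower, and voom with limma called 0 higher and 3 lower. These counts stand without the shares of all genes at the same settings, so they give no direction for the members. The median log2 fold change was -0.47 for fatty acid genes, -0.42 for sensing and export genes and 0.02 for sterol enzymes, beside 0.09 over all genes tested.

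Acly was at 367.3, 282.7 and 309.9 normalized CPM in WT Post-Tx and at 158.2, 125.1 and 145.1 in TCF-1 cKO Post-Tx. Every TCF-1 cKO library lay below every WT library, the reverse of the order before transplant, and the gene fell by 1.02 ± 0.22 on the log2 scale (adjusted p = 0.0229). In TPM the means were 86.7 ± 6.82 in WT and 51.6 ± 5.35 in TCF-1 cKO (n = 3 each). All 9 other settings called Acly lower, whereas 3 of 6 fits with 1 library left out did, and leaving out replicate 2 or 3 of TCF-1 cKO, or replicate 1 of WT, ended the call. Across these 6 fits the calls over all genes ran from 6 to 3173. Scap (chr9:110333288-110384950) was at 164.7, 141.4 and 131.7 normalized CPM in WT and at 83.8, 52.9 and 72.5 in TCF-1 cKO, without overlap, and fell by 0.93 ± 0.24 (adjusted p = 0.0356). That call held in 2 of 6 fits with 1 library left out (replicate 1 of TCF-1 cKO, replicate 2 of WT), and with library totals only the log2 fold change was -0.55 (adjusted p = 0.106). The call was also lost with upper-quartile normalization, with limma on log2(TPM + 1) and in a fit of all 12 libraries. In TPM the Scap groups overlapped, at 32.9 to 46.5 in WT and 22.9 to 34.9 in TCF-1 cKO.

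The member with the next smallest p was Acat2, the cytosolic acetyl-CoA acetyltransferase that starts the sterol pathway. It was at 55.5, 40.4 and 56.3 normalized CPM in WT Post-Tx and at 29.1, 22.2 and 23.8 in TCF-1 cKO Post-Tx, without overlap (-0.87 ± 0.27, adjusted p = 0.0579). Scd1, high in TCF-1 cKO before transplant, was at 11.5, 65.2 and 8.60 normalized CPM in WT and at 37.4, 16.3 and 36.0 in TCF-1 cKO. Scd2 was at 59.0, 47.0 and 54.8 in WT and at 30.0, 28.4 and 56.1 in TCF-1 cKO. Both pairs of groups overlapped, and neither passed the test (0.14 ± 0.56, adjusted p = 0.867 and -0.35 ± 0.29, adjusted p = 0.401). Srebf1 was at 189.9, 119.2 and 140.4 in WT and at 101.9, 92.2 and 56.3 in TCF-1 cKO, without overlap (-0.70 ± 0.26, adjusted p = 0.0921). Srebf2 was at 308.4, 180.8 and 244.1 in WT and at 174.6, 138.7 and 138.6 in TCF-1 cKO, also without overlap (-0.55 ± 0.24, adjusted p = 0.123). Insig1 was at 21.4, 28.6 and 18.4 in WT and at 17.9, 15.7 and 18.1 in TCF-1 cKO (-0.28 ± 0.34, adjusted p = 0.561). None of these differences passed the test. In TPM the day 7 groups of Srebf1 overlapped, at 36.0 to 49.2 in WT and 23.6 to 38.6 in TCF-1 cKO. Those of Srebf2 overlapped as well, at 59.1 to 80.1 TPM in WT and 54.9 to 63.8 TPM in TCF-1 cKO.

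The sterol enzyme class showed how far a level at day 7 depends on the scale. Summed over the 18 genes and scaled to the library total only, it was at 646.2 to 672.1 CPM in WT Post-Tx and at 755.7 to 813.8 CPM in TCF-1 cKO Post-Tx. With library totals only, the median log2 fold change of the sterol enzymes was 0.43, that of sensing and export genes -0.02 and that of fatty acid genes -0.08, beside 0.49 over all genes. The median over all genes moved by 0.40 from its TMM value. Relative to all genes the 3 classes were at -0.06, -0.51 and -0.57 with library totals and at -0.07, -0.51 and -0.56 with TMM. All 8 T cell markers were called lower in TCF-1 cKO Post-Tx, with sums of 7581 to 9144 CPM in WT and 5743 to 6101 CPM in TCF-1 cKO. Of 6 erythroid markers 5 were called higher, with sums of 709.1 to 1481 CPM in WT and 1645 to 5745 CPM in TCF-1 cKO, and of 621 olfactory receptor genes tested 86 were called higher and 0 lower. All 12 macrophage and monocyte markers tested had positive log2 fold changes, none past the threshold, with sums of 1325 to 2188 CPM in WT and 2653 to 2973 CPM in TCF-1 cKO. The sums of the 2 CD8 T cell markers did not overlap either, at 20.5 to 42.3 CPM in WT and 55.9 to 57.6 CPM in TCF-1 cKO. The part of these in the Acly and Scap results was not tested.

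**Figure D3:**
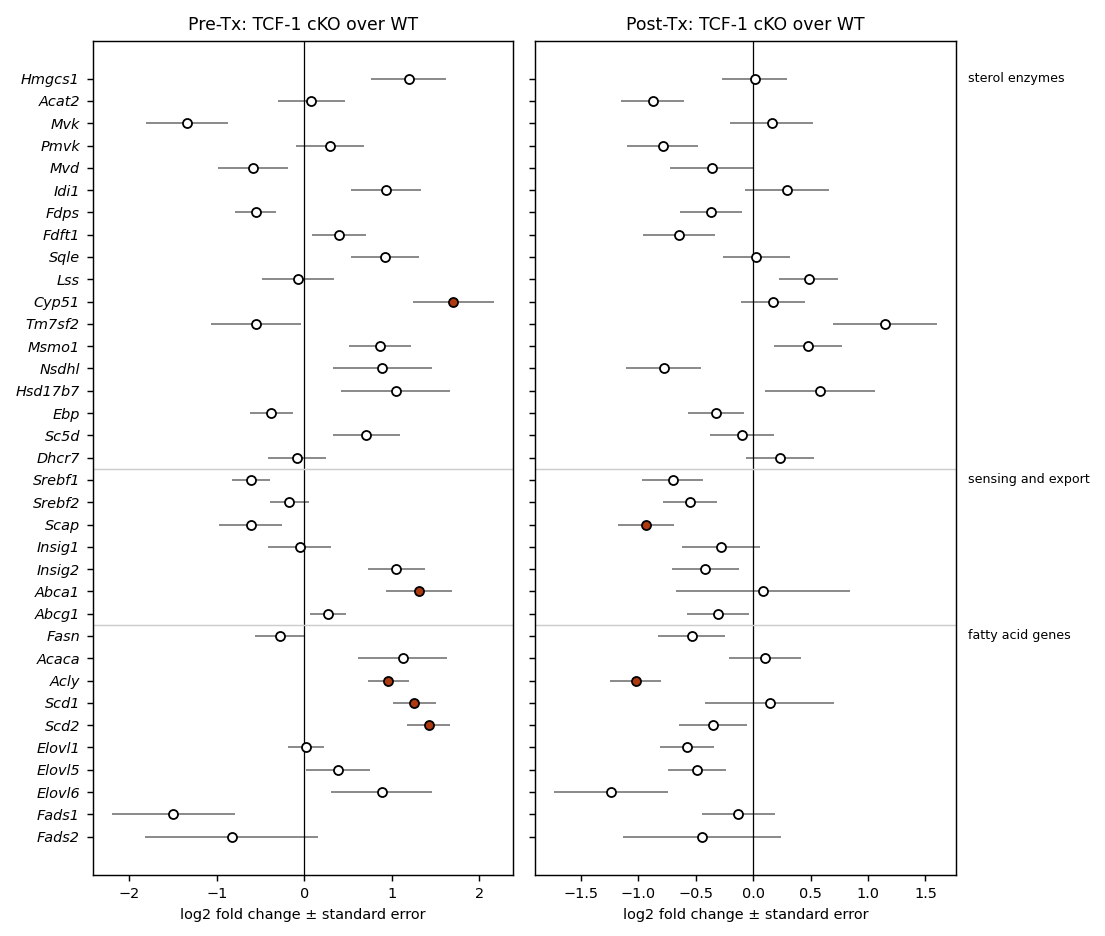
Log2 fold change ± standard error of each of the 35 members, TCF-1 cKO over WT, before transplant (left) and at day 7 (right), with called members filled. Before transplant the filled points are Cyp51, Abca1, Acly, Scd1 and Scd2, all to the right of 0, and at day 7 they are Scap and Acly, both to the left.

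The change with transplant was tested within each genotype in 1 model of all 12 libraries. Pre-Tx and Post-Tx libraries differ in day, host, cell state and B cell RNA at once, so these effects cannot be told apart. In WT, 4 members (11.4%) were called higher at day 7 and 3 (8.57%) lower, beside 11.6% of all 21434 genes called higher and 10.4% lower. In TCF-1 cKO, 0 were called higher and 8 (22.9%) lower, beside 14.2% and 12.5% of all genes. The balance of directions depended on the scale. With upper-quartile normalization 2 members were called higher (Ebp and Fads1) and 6 lower in TCF-1 cKO, with library totals only 3 higher (Ebp, Elovl1 and Fads1) and 6 lower, and with limma on log2(TPM + 1) 3 higher and 4 lower. In WT upper-quartile normalization called 2 higher, Sc5d and Acly, and 9 lower, and limma on log2(TPM + 1) called 9 higher and 3 lower. At an unadjusted p under 0.05, 1 member was higher and 12 were lower in TCF-1 cKO. There DESeq2 called 1 higher and 11 lower, and voom with limma 1 higher and 8 lower. The shares of all genes at these other settings are not given here, so these counts are not read as a direction. The median log2 fold change of the 35 members was 0.20 in WT and -0.53 in TCF-1 cKO, beside -0.41 and 0.36 over all genes tested. All 10 B cell markers fell in both genotypes. Of 12 proliferation markers, 12 rose in WT and 11 in TCF-1 cKO. All 6 erythroid markers fell in both genotypes. Of 704 olfactory receptor genes tested, 102 were called lower and 1 higher in WT (median -1.43), and 269 were called higher and 1 lower in TCF-1 cKO (median 2.14). These genes are among those that the medians and shares of all genes are taken over, and their part in the results of the members was not tested.

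Scd1, Abca1 and Srebf2 fell in both genotypes, and each was called in all 12 fits with 1 library left out for each genotype. Scd1 fell by 2.99 ± 0.58 in WT (adjusted p = 0.00125) and fell by 4.10 ± 0.60 in TCF-1 cKO (adjusted p = 0.000127) on the log2 scale. Its mean was 207.1 ± 57.4 normalized CPM in WT Pre-Tx and 28.4 ± 31.8 in WT Post-Tx, and in TCF-1 cKO it was 552.0 ± 114.9 before and 29.9 ± 11.8 after transplant (SD, n = 3 each). WT Post-Tx replicate 2, at 65.2, stood apart from the other WT Post-Tx libraries but below every Pre-Tx library. Abca1 fell to 1.87, 1.55 and 7.75 normalized CPM in WT (by 2.72 ± 0.62, adjusted p = 0.00459) and to 1.24, 3.87 and 5.11 in TCF-1 cKO (by 4.01 ± 0.66, adjusted p = 0.000345). Srebf2 fell by 1.05 ± 0.24 in WT (adjusted p = 0.00403) and fell by 1.50 ± 0.24 in TCF-1 cKO (adjusted p = 0.000279), from group means of 456.1 and 463.8 to 244.4 and 150.6 normalized CPM.

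Higher in WT at day 7 were Acly, Elovl1 and the late sterol enzyme genes Nsdhl and Sc5d. Nsdhl (chrX:72918557-72958514), a sterol dehydrogenase that helps to remove the methyl groups of lanosterol, was at 13.1, 16.2 and 2.43 normalized CPM before and at 38.2, 26.97 and 29.5 after transplant, without overlap, and rose by 1.43 ± 0.49 (adjusted p = 0.0470). Sc5d (chr9:42251595-42264256), a sterol desaturase, was at 16.1, 31.1 and 12.8 before and at 37.0, 55.9 and 57.7 after, also without overlap, and rose by 1.19 ± 0.34 (adjusted p = 0.0189). The call of Nsdhl held in 4 of 12 fits with 1 library left out (replicate 1 or 3 of TCF-1 cKO Pre-Tx, replicate 1 or 2 of WT Pre-Tx), and that of Sc5d in 9 of 12, being lost without WT Pre-Tx replicate 3, WT Post-Tx replicate 2 or WT Post-Tx replicate 3. In TCF-1 cKO Nsdhl was at 18.3, 23.6 and 22.7 before and at 14.5, 13.9 and 21.7 after transplant, and Sc5d at 43.1, 33.5 and 32.0 before and at 40.9, 33.3 and 53.7 after. On this scale those levels overlapped, and neither passed the test (-0.25 ± 0.48, adjusted p = 0.713 and 0.36 ± 0.34, adjusted p = 0.422). Scaled to the library total only, Sc5d in TCF-1 cKO was at 26.0 to 38.9 CPM before and 48.2 to 70.4 CPM after, without overlap. In TPM it was at 20.0 to 29.5 before and 31.3 to 42.9 after, also apart. With library totals only Sc5d was not called in TCF-1 cKO either. Elovl1 rose in WT by 0.79 ± 0.21 (adjusted p = 0.0144), a call lost without WT Post-Tx replicate 1.

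Lower in TCF-1 cKO at day 7, beside the genes that fell in both genotypes, were Scd2, Acly, Insig2, Srebf1 and Abcg1, a sterol exporter of the same transporter family as Abca1. Scd2 fell by 2.21 ± 0.28 (adjusted p = 3.13e-05), from 151.3 to 228.1 normalized CPM before transplant to 28.4 to 56.1 after. Abcg1 fell by 1.15 ± 0.26 (adjusted p = 0.00449). Both were called in all 12 fits with 1 library left out. With limma on log2(TPM + 1), however, Abcg1 was at -0.37 (adjusted p = 0.185) and Acly at -0.49 (adjusted p = 0.0926), and neither was called. In the left-out fits, Insig2 (-0.94 ± 0.29, adjusted p = 0.0262) and Srebf1 (-0.70 ± 0.25, adjusted p = 0.0465) were each called in 4 of 12. For Insig2 these were the fits without WT Pre-Tx replicate 3 or any 1 WT Post-Tx library, and for Srebf1 those without WT Pre-Tx replicate 3, TCF-1 cKO Post-Tx replicate 1 or WT Post-Tx replicate 1 or 2. With library totals only the values of Insig2 and Srebf1 were -0.46 (adjusted p = 0.221) and -0.22 (adjusted p = 0.449), and neither was called.

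**Figure D4:**
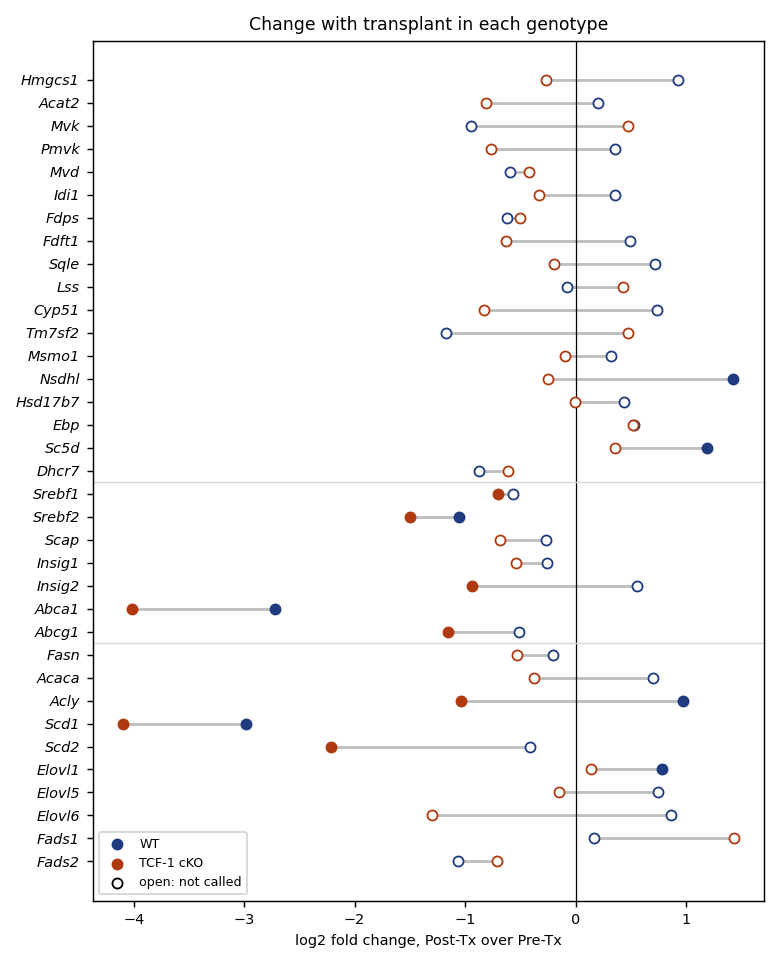
Log2 fold change of each of the 35 members, Post-Tx over Pre-Tx, in WT (blue) and TCF-1 cKO (red), with called values filled and a grey line joining the genotypes. Acly stands at 0.98 in WT and -1.04 in TCF-1 cKO, and Scd1 at -2.99 and -4.10.

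Whether the genotype difference itself differed between the stages was tested as the interaction in the same model, which shares its libraries with the comparisons above. A negative value means that TCF-1 cKO was lower relative to WT at day 7 than before transplant. Of the 35 members 0 were called higher and 4 lower (11.4%), beside 17.1% and 11.5% of all genes, so the share called lower was that of all genes. At an unadjusted p under 0.05, 2 were higher and 11 lower, and by DESeq2 and by voom with limma 0 were higher and 9 and 6 lower. Without the shares of all genes at these settings, such counts give no direction for the members. Upper-quartile normalization called 2 higher, Mvk and Tm7sf2, and 2 lower, Acly and Scd2, and library totals only called Mvk higher and the same 2 lower. The median was -0.65 for the 35 members and 0.37 for all genes tested, and 362 of 704 olfactory receptor genes tested were called higher. Of 12 proliferation markers 0 were called higher and 5 lower (median -1.03). Of 13 macrophage and monocyte markers 0 were called higher and 4 lower, and of 10 B cell markers 0 and 2. Of 6 erythroid markers 5 and of 2 CD8 T cell markers 1 were called higher, and 0 lower. Of 8 T cell markers 0 were called. The Pre-Tx libraries held far more B cell than CD4 T cell RNA. The part of these genes and cells in the interaction results was not tested.

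Acly had the smallest adjusted p among the members, at -2.01 ± 0.32 (adjusted p = 0.00168). It rose with transplant in WT by 0.98 ± 0.22 (adjusted p = 0.00453) and fell in TCF-1 cKO by 1.04 ± 0.22 (adjusted p = 0.00331), and its interaction was called in all 12 fits with 1 library left out and in all 8 other settings. Scd2 followed at -1.80 ± 0.39 (adjusted p = 0.00554) and was likewise called in all of them. Insig2 (chr1:121304353-121332589) was at 29.4, 31.5 and 36.8 normalized CPM in WT Post-Tx and at 21.9, 23.6 and 20.6 in TCF-1 cKO Post-Tx, the reverse of its order before transplant, and the interaction was -1.50 ± 0.41 (adjusted p = 0.0156). In TPM, which is scaled to the library only, its day 7 means were 22.6 ± 2.25 in WT and 24.9 ± 4.84 in TCF-1 cKO, and with library totals only the interaction was not called (-1.11, adjusted p = 0.0577).

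Elovl6 (chr3:129532355-129638495), which lengthens palmitate to stearate, was at 6.82, 4.22 and 9.37 normalized CPM in WT Pre-Tx, at 22.6, 12.7 and 7.84 in TCF-1 cKO Pre-Tx, at 8.07, 20.0 and 13.2 in WT Post-Tx and at 7.57, 3.66 and 4.91 in TCF-1 cKO Post-Tx. On this scale the genotypes overlapped before transplant and did not at day 7. In TPM they overlapped at day 7 as well, at 3.66 to 9.94 in WT and 2.33 to 4.24 in TCF-1 cKO. The interaction was -2.16 ± 0.76 (adjusted p = 0.0419), was called in 4 of 12 fits with 1 library left out (replicate 3 of either Pre-Tx group, replicate 1 of either Post-Tx group), and was lost in 5 of 8 other settings. Among the sterol enzymes, Nsdhl at -1.67 ± 0.69 (adjusted p = 0.0742) and Cyp51 at -1.57 ± 0.60 (adjusted p = 0.0572) had the largest negative values and Tm7sf2, a sterol reductase, the largest positive one at 1.65 ± 0.69 (adjusted p = 0.0756). None of the 18 was called with TMM.

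Other genes of lipid metabolism, from lists of neighbouring pathways, were read against the same background. Of all genes tested, 8.52% were called higher and 5.65% lower in TCF-1 cKO before transplant, and 3.52% and 3.13% at day 7. With transplant the shares were 11.6% and 10.4% in WT and 14.2% and 12.5% in TCF-1 cKO. For the interaction they were 17.1% and 11.5%. Counts this small in lists of 16 to 19 genes are not read as results about the pathways. Of 18 isoprenoid and sterol handling genes 3 were called higher in TCF-1 cKO Pre-Tx and 0 lower: Soat1, which esterifies cholesterol (1.24 ± 0.30, adjusted p = 0.0229), Lbr, a nuclear envelope protein with sterol reductase activity (1.13 ± 0.27, adjusted p = 0.0239), and Mylip (1.15 ± 0.28, adjusted p = 0.0249). At day 7, 1 was called higher and 0 lower, namely Mbtps2, the protease that makes the last cut in SREBPs (1.65 ± 0.34, adjusted p = 0.0209). Of 16 other fatty acid synthesis and activation genes, 2 were called higher before transplant, Acsl5 and Hacd3, and at day 7 1 was called lower, Acss2, which makes acetyl-CoA from acetate (-1.14 ± 0.26, adjusted p = 0.0260). Of 19 fatty acid oxidation genes 3 were called higher before transplant, Etfa (1.24 ± 0.24, adjusted p = 0.0133), Acadl (1.02 ± 0.24, adjusted p = 0.0221) and Acadm (1.19 ± 0.34, adjusted p = 0.0389), and 1 was lower at day 7, Acaa2 (-0.74 ± 0.21, adjusted p = 0.0456). With transplant in WT, 5 of the 19 oxidation genes rose and 0 fell, led by Etfa (1.92 ± 0.24, adjusted p = 2.25e-05), whereas in TCF-1 cKO 0 rose and 2 fell. Scaled to the library total only, the sum over the 19 genes was higher after transplant in both genotypes, at 1208 to 1227 CPM before and 1968 to 2084 CPM after in WT, and at 1305 to 1373 CPM before and 1946 to 1960 CPM after in TCF-1 cKO. The interaction was called lower for 4 of the 19, Etfa, Acadl, Acadm and Cpt1a, the carnitine palmitoyltransferase that admits fatty acids to mitochondria (-1.50 ± 0.48, adjusted p = 0.0290).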

How the data were processed

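RNA was extracted from sorted cells, turned into cDNA with a SMARTseq HT kit and sequenced as paired ends by the authors. The estimated counts are the read pairs that the authors' kallisto 0.46.2 run assigned to each transcript, deposited without normalization. The deposited TPM values, which the same run derived from them, divide by effective length and scale to the library. The submitters' processing notes name kallisto, limma and the build mm9, while the sources used here do not give the transcript set. Of 117497 transcripts, 116428 (99.1%) had an identifier that, its version dropped, is in GENCODE M21 (GRCm38), which gives the gene positions printed. The other 1069, with 0.282% to 0.386% of the counts, were left out.

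Estimated counts were summed over each of 35907 genes and rounded. Genes with low counts were removed (filterByExpr), libraries were scaled with TMM factors, and the quasi-likelihood test of edgeR 4.0.16 in R 4.3.3 was run with Benjamini-Hochberg adjustment over all genes tested. The standard error is the size of the log2 fold change divided by the square root of F. Genotypes were compared within the 6 libraries of a stage, and transplant and the interaction in a model of 12. Libraries are labelled as biological replicates and the study counts mice per condition, and p-values measure the spread between these libraries. Which mouse gave which library is not given in what was read here. Libraries of a group correlated at 0.872 to 0.953 (Pearson, log2 CPM with a prior count of 2). The range leaves out perfect correlations, so it cannot show a copy, but the total counts of all libraries differed. Intervals and errors cover the libraries as sequenced, and PCR copies were not removed by molecular identifiers.

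The members, the gene lists and the tests were chosen with earlier results of these data known. Every library's value is given for members called in a genotype comparison or the interaction, for the 3 largest called changes in each direction with transplant at a mean of at least 10 normalized CPM in the higher group, for the 3 smallest p where fewer than 3 members were called, and for Srebf1, Srebf2 and Insig1, with values before transplant given once. Of other lists, at most 3 genes by adjusted p are named, and any further gene named was chosen after its values were seen. Alternatives were DESeq2 1.42.0, limma 3.58.1 with voom and on log2(TPM + 1), RLE and upper-quartile normalization, no filter, the replicate number as a block, other sets of libraries, each library left out, and library totals only, the last chosen after seeing the data. Methods were tested on simulated data. Figures were drawn with Python 3.11.15 and matplotlib 3.10.9.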

Additional observations from a re-analysis of the deposited data

Results flagged for a closer look

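The genotype difference differed between Pre-Tx and Post-Tx for 4 of the 35 members by the interaction test of edgeR's quasi-likelihood model of 12 libraries. In each, TCF-1 cKO was lower relative to WT at day 7 than before transplant. The 4 are 11.4% of the members, beside 11.5% of all genes called lower, so the share was that of all genes. The values on the log2 scale were -2.01 for Acly (adjusted p = 0.00168), -1.80 for Scd2 (adjusted p = 0.00554), -1.50 for Insig2 (adjusted p = 0.0156) and -2.16 for Elovl6 (adjusted p = 0.0419). In Acly and Insig2 the order of the genotypes turned on the normalized CPM scale, with every TCF-1 cKO library above every WT library before transplant and below every WT library at day 7. On that scale the genotypes stood apart in Scd2 before transplant and overlapped at day 7. In Elovl6 they overlapped before transplant and stood apart at day 7, but in TPM they overlapped at day 7 too. In TPM the order of Insig2 did not turn.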

How the results depend on the processing

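No member called in a comparison changed direction under any alternative. Across single members, 408 values kept their call and 92 lost it. The number of members called, 5 before transplant, rose to 9 with DESeq2, and with upper-quartile normalization the 5 called were Scd1 and Scd2, higher, and Fdps, Mvk and Srebf1, lower. The 2 called at day 7 became 5 with DESeq2, 6 with the replicate block, 1 with upper-quartile normalization, 1 with limma on log2(TPM + 1) and 1 in a fit of all 12 libraries, and with library totals only they were Lss, higher, and Acly, lower. The 7 called in WT with transplant (4 higher, 3 lower) became 11 with upper-quartile normalization (2 higher, 9 lower) and 12 with limma on log2(TPM + 1) (9 higher, 3 lower), and the 4 of the interaction became 9 with DESeq2 and 11 with no filter. The cause was not tested, and without the shares of all genes under these settings the counts give no direction for the members. With each library left out the counts were 0 to 4 before transplant, 0 to 4 at day 7, 5 to 9 in WT, 6 to 9 in TCF-1 cKO and 3 to 8 for the interaction. Calls over all genes in these fits moved too, from 14 to 2594 before transplant and from 6 to 3173 at day 7. They ran from 2761 to 5159 in WT, 2776 to 6198 in TCF-1 cKO and 3013 to 7279 for the interaction. The 0 before transplant arose without WT Pre-Tx replicate 1, those at day 7 without TCF-1 cKO replicate 2 or 3 or WT replicate 1, and the 8 of the interaction without WT Pre-Tx replicate 2. Across groups, deviations from the group mean of libraries with the same replicate number correlated at -0.273 to 0.253. Libraries with different numbers were not compared, so this range does not decide whether the numbers pair libraries. The block gave 6, 6, 6, 7 and 3 calls in the order of these comparisons. Upper-quartile normalization moved the median of all genes by -0.36 before transplant, 0.28 at day 7, -0.29 in WT, 0.38 in TCF-1 cKO and 0.67 in the interaction, and under it the median of the sterol enzymes changed sign before transplant (-0.02), in TCF-1 cKO (0.12) and in the interaction (0.08), and that of sensing and export genes in the interaction (0.24). RLE normalization turned that of the sterol enzymes at day 7 (from 0.02 to -0.02). With library totals only, the sign also turned for sensing and export genes before transplant (0.0021) and for sterol enzymes in TCF-1 cKO (0.23).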
